A study of Mus musculus with 16 samples.

Results

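TCR alpha variable segments were taken as every gene row whose symbol starts with Trav, which gave 130 of the 56748 genes in the table. RNA-Seq was performed on memory CD4+ T cells sorted from the spleen (gated as CD4+ and CD44high, CD62L- and low or negative for CD25) of HP1α-deficient and HP1γ-deficient mice and of the WT littermates of either line, with 4 samples in each of the 4 groups and 16 in all. HP1α KO mice (Hp1a-/-) came from an allele whose floxed sequence had been excised with CMV-cre, which is active in every tissue, and were compared with Hp1a+/+ littermates. In the HP1γ line, KO and WT mice were both homozygous for the floxed Hp1g allele, and the KO also carried Cd4-cre, so that the effects of Cre and of HP1γ loss cannot be told apart. The background of both lines was a mixture of 129/Sv and C57BL/6, the labels give no age, and nothing in the labels ties samples to cages, litters or sort days. Each sample also has a treatment label that names transferred Treg, and the series text describes irradiated and grafted recipients. These disagree with the titles and cell type labels (Tmem) and with the study's methods for this cell type, which were followed here, and formed no group. The protein targeted in each KO is a heterochromatin protein that binds methylated H3K9. In the HP1γ line its loss was limited to cells with Cd4-cre activity, and the study describes it as nearly complete in naive CD4+ T cells. The comparisons below ask whether the loss of the protein, or the line, went along with a different use of variable segments.

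The alpha chain of the T cell receptor is made by joining 1 variable (Trav) to 1 joining (Traj) segment, and the joined exon is spliced to the constant gene Trac. Every T cell clone therefore transcribes mostly the variable segment it has rearranged, and the counts of a Trav row in bulk RNA add up over all clones that chose it. The central part of the mouse locus has been copied, and the letters d and n in a name (Trav6d-7, Trav6n-7) mark copies of a segment that also exists without a letter. A pair of rearrangements mark innate-like cells: Trav11 joined to Traj18 is the invariant alpha chain of NKT cells, and Trav1 joined to Traj33 is that of MAIT cells. Each functional variable exon ends in a recombination signal that starts with a heptamer, at which the RAG recombinase cuts. In bulk samples, more cells that use a segment and more RNA per such cell cannot be told apart.

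All 130 rows were found on the plus strand of chr14 in a GENCODE annotation of GRCm39, between 52665385 and 54215135, a stretch of 1549.8 kb that ends 242.8 kb before Trac. Of these, 110 were annotated as functional and 20 as pseudogenes. Pseudogenes held between 0.379% and 1.19% of the summed Trav counts of a sample. The name class was plain for 56 rows, d for 40 and n for 34. By comparing the spliced transcripts with each other, 71 rows fell into 32 sets of near-identical copies (at least 98% identity over 250 bases or more), so that 91 distinguishable members were left, and 17 pairs had transcripts that did not differ at all. A read that lies within such a pair cannot be placed by its sequence.

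3 sets of sequences show what the counts can and cannot separate. The first is Trav11, the leading segment of these cells, whose variable exon (chr14:53757026-53757316) is shown with its low n copy (chr14:53372845-53373135), in which the bases that differ from Trav11 are in capitals. The d copy (chr14:53062080-53062369) had the sequence of Trav11 without the last base of the annotated exon.
Trav11: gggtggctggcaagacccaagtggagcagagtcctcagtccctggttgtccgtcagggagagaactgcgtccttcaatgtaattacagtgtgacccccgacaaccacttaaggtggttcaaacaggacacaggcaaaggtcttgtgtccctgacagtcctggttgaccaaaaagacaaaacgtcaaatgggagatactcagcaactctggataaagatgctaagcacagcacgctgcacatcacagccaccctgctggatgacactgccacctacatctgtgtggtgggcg
Trav11n: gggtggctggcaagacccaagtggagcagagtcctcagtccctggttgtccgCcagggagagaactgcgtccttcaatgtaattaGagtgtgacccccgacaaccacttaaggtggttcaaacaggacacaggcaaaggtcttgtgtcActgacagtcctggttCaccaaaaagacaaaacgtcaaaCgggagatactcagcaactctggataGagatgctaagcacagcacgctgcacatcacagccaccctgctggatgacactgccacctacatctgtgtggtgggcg

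The second set is Trav16, whose summed share differed between the lines. Its exons were read at chr14:53980862-53981161 (Trav16), chr14:53588778-53589077 (Trav16n) and chr14:53284978-53285277 (Trav16d-dv11), each without its last base, and capitals mark bases that differ from Trav16.
Trav16: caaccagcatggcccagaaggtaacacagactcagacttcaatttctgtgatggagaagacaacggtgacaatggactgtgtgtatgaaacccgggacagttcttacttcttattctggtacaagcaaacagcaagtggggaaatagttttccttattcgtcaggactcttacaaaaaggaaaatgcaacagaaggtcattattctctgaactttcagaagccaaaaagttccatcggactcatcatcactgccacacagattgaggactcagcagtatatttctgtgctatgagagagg
Trav16n: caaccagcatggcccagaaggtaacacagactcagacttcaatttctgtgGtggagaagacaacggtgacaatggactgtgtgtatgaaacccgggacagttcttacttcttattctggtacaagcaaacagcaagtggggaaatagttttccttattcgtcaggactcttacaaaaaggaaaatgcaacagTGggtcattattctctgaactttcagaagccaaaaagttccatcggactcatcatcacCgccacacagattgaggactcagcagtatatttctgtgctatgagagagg
Trav16d-dv11: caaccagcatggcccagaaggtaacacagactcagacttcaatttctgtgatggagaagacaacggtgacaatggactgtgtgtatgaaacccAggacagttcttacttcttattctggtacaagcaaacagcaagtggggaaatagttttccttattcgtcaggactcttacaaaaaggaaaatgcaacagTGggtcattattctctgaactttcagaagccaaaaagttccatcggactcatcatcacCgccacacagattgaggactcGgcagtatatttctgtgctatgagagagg

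The third is the most abundant pair without any difference, Trav3n-3 (chr14:53521342-53521632) and Trav3d-3 (chr14:53210205-53210495), whose common exon is shown once.
Trav3n-3: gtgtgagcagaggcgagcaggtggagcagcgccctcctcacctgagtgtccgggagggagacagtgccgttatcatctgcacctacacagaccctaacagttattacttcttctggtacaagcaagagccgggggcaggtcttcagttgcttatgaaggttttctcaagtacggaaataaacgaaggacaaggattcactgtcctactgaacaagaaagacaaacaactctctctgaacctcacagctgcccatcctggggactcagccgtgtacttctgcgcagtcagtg

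The 39 bases that follow the exon are given for Trav11 (chr14:53757317-53757355) beside Trav16 (chr14:53981163-53981201), Trav14-2 (chr14:53878683-53878721) and Trav10 (chr14:53743744-53743782), because the first 7 of them, in capitals, are where the heptamer is read. The letters CACAGTG, searched on the plus strand directly at the exon end, were present in 99 of 130 rows (76.2%), in 91 of the 110 functional rows and in 8 of the 20 pseudogenes. The exon end is that of the annotation, so that a row counted as without the letters need not lack a heptamer. In Trav7-2, for example, they began just past that position. At any position of the locus these letters were met in 0.0175% of cases. Trav11 carried other letters there, and so did Trav10.
Trav11: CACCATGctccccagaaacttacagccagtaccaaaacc
Trav10: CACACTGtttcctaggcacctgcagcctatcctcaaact
Trav14-2: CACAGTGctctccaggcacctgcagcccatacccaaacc
Trav16: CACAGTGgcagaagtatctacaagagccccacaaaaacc

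A sample held between 26694045 and 40199637 counts in all, and between 6101 and 10657 of these were assigned to Trav rows. A count of 0 in a row therefore allows a share of up to between 0.0282% and 0.0492% of the summed Trav counts (3 counts), and this covers counting error only. The counts were estimates of an algorithm that divides ambiguous reads, and 53.2% of the values of Trav rows were not whole (by more than 1e-06), against 11.6% over all genes. Cd4 was between 1015 and 1369 CPM in the 16 samples, Cd8a between 0.541 and 7.39 CPM, and Trdc, the constant gene of the delta chain, between 3.83 and 10.0 CPM. Foxp3 was at 57.5 to 164 CPM, and Rag1 did not exceed 0.0758 CPM. For the targeted genes, Cbx5, which encodes HP1α, was at 23.0 to 29.0 CPM in HP1α KO and 33.8 to 54.0 CPM in WT littermates (log2 fold change -0.58, SE 0.145, edgeR adjusted p = 0.946), and Cbx3, which encodes HP1γ, was at 45.9 to 50.3 CPM in HP1γ KO and 73.3 to 92.4 CPM in WT littermates (log2 fold change -0.82, SE 0.0790, edgeR adjusted p = 0.0015).

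Between 94 and 102 of the 130 rows had counts in a given sample, and 13 rows were listed at 0 in all 16 samples. Of these 13, 10 were pseudogenes. The other three were Trav11d, Trav7-2 and Trav15n-1, which were functional and each had a near-identical copy with counts: Trav7-2 has the 336 bases of Trav7d-2, which held 2.77% of Trav counts (SD 0.628, n = 16), and Trav11d the 342 bases of Trav11. A value of 0 in such a row does not show that the segment went unused.

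Along the locus, the rows between 500 and 1000 kb from Trac held 63.7% of Trav counts on average (55.7% to 66.8% over the samples), from 52 rows. The next 500 kb, with the same number of rows, held 24.1% (20.2% to 29.0%). The 10 rows farther than 1500 kb away held 5.11%, and the 16 rows nearest to Trac held 7.10%. Counted per functional row, the mean share was 1.36% in the band from 500 to 1000 kb and between 0.535% and 0.710% in the other three bands. Copies of 1 set can lie in different bands, as the Trav16 and Trav3-3 copies do, so that these sums depend on how the authors' program divided the reads.

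**Figure D1:**
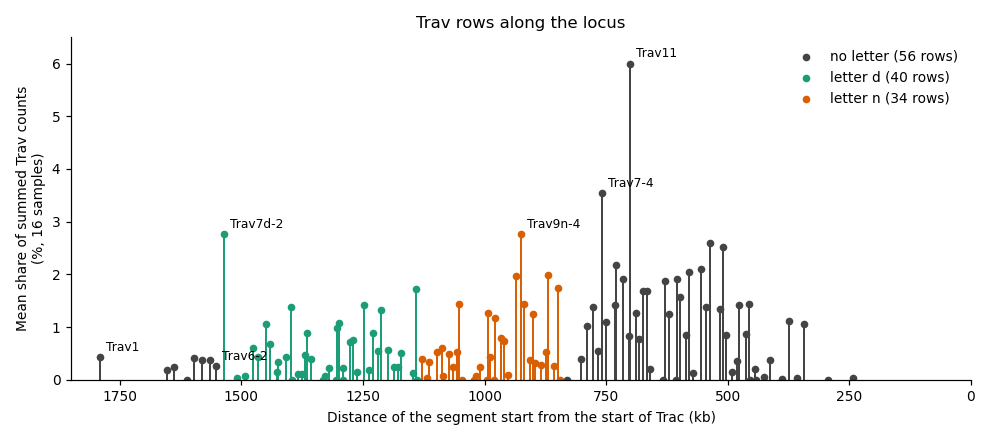
Mean share of summed Trav counts (%, 16 samples) of each of the 130 rows against the distance of its start from the start of Trac (kb), coloured by name class. Trav11, at 700.7 kb, stands highest at 6.00%.

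Trav11 was the leading row in 15 of the 16 samples, with 6.00% of the summed Trav counts (SD 1.23, n = 16, range 3.98% to 9.12%). It was followed by Trav7-4 (3.55%), Trav7d-2 (2.77%), Trav9n-4 (2.76%), Trav4-4-dv10 (2.60%) and Trav6-7-dv9 (2.52%). These shares are of counts and are not corrected for length. As shares of summed Trav TPM, which are per length, Trav11 held 7.30% and Trav7d-2 3.48%, and Trav7-4 moved to the fourth place with 2.74%.

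After the near-identical copies were summed, Trav11 still had the highest mean but led in 9 of the 16 samples, and in none of the 4 HP1γ KO samples. Of the 91 members, 38 reached a mean of at least 1% and held 83.5% of the counts together. The second was the Trav6-7 set (Trav6d-7, Trav6n-7 and Trav6-7-dv9) with 5.09% and the third the Trav7-4 set (Trav7d-4 and Trav7-4) with 4.61%. In HP1α KO the Trav6-7 set held 4.97%, 5.57%, 4.07% and 4.41%, and in WT littermates 4.79%, 4.36%, 4.60% and 4.87%. In HP1γ KO it held 6.11%, 4.75%, 5.12% and 4.93%, and in WT littermates 5.69%, 4.76%, 9.26% and 3.17%. The highest and the lowest of these 16 values were both WT samples of the HP1γ line. The Trav7-4 set held 3.5%, 4.10%, 5.14% and 3.33% in HP1α KO and 4.86%, 3.28%, 3.49% and 4.39% in the WT littermates. It held 3.84%, 7.52%, 4.07% and 6.12% in HP1γ KO and 5.93%, 4.96%, 5.29% and 4.0% in the WT littermates. KO and WT overlapped in both lines for both sets.

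**Figure D2:**
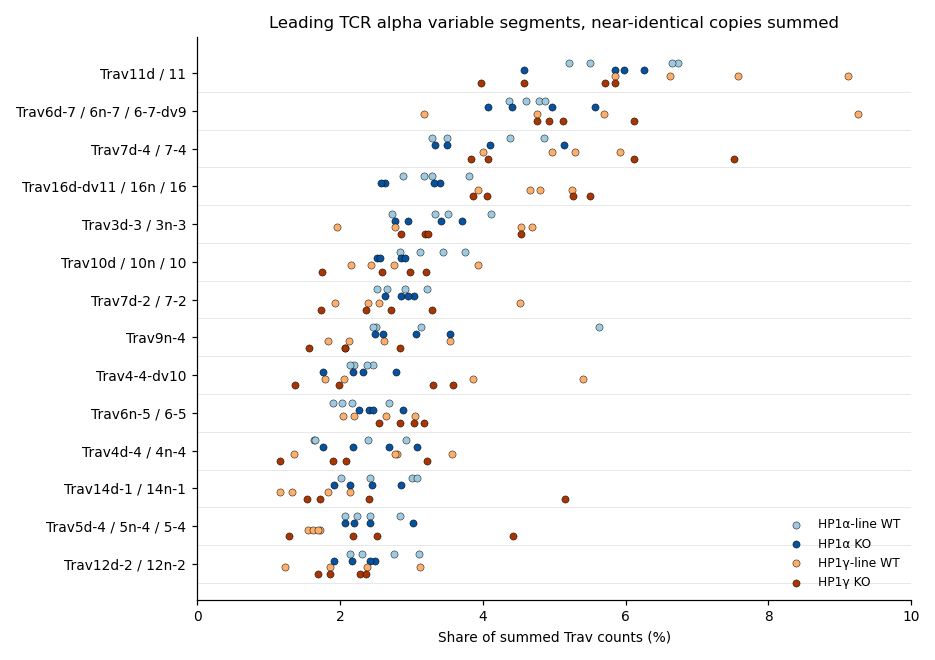
Share of summed Trav counts (%) of the 14 leading members after near-identical copies were summed, with 1 point per sample coloured by group. Trav16 (d-dv11, n and plain) is the member whose HP1α-line samples, up to 3.81%, all lie below its HP1γ-line samples, from 3.87%. As shares of summed Trav TPM its lines overlapped.

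By family, which is the number after Trav, the 14 rows of Trav7 held 13.7% (11.4% to 16.5% over the 16 samples), the 15 rows of Trav6 13.5% (10.3% to 18.3%) and the 9 rows of Trav14 12.4% (9.63% to 15.9%). Together these 3 of the 23 families held 39.6%. On the TPM scale Trav6 (14.8%) came before Trav7 (13.9%), and the neighbours in this order did not differ beyond their spread. Trav9 held 9.44%, Trav12 8.26%, Trav4 7.06% and Trav13 7.02%, while Trav18, Trav20 and Trav23 stayed below 0.05% on average and Trav22, a pseudogene, was listed at 0.

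The spread of a member between samples of 1 group holds differences between mice as well as counting error. Over the 38 members with a mean of at least 1%, the SD within groups was 29.8% of the mean in the median (12.2% for Trav4-3 to 66.4% for the pair Trav13d-2 and Trav13n-2), whereas counting alone would give 7.71%. Counting error is a lower limit here, since reads are not independent molecules. The Trav13d-2 and Trav13n-2 pair, for example, held 3.72% in 1 HP1α KO sample and 1.36% to 1.59% in the other three, and 4.26% in 1 WT sample of the HP1γ line and 0.820% to 1.16% in the other three. Between pairs of samples of the same group, the share of Trav counts that sat on different members was 15.9% in the median. It was 15.6% between KO and WT samples of 1 line and 17.6% between samples of different lines, and the ranges of the 3 kinds of pair overlapped (11.4% to 24.7%, 10.8% to 23.7% and 12.4% to 22.7%). Pearson's r of the profiles over the 91 members, which share libraries and are given as a description, was 0.885, 0.887 and 0.863 in the median.

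For identical copies, single rows varied more than their sums. Of the 17 pairs with the same transcript, 15 had counts. There were 231 cases of a pair and a sample in which both copies summed to at least 10 counts, and in 181 of them (78.4%) all counts were given to 1 copy, to the first-named copy in 85 and to the second in 96. Trav7d-5 and Trav7n-5 shared no counts in any of the 16 samples: all were given to Trav7n-5 in 12 and to Trav7d-5 in 4. Trav3n-3 held 2.86%, 2.40%, 0% and 1.56% in the 4 HP1γ KO samples and Trav3d-3 0%, 2.14%, 3.20% and 1.68%, while their sums were 2.86%, 4.54%, 3.20% and 3.24%. Over the 15 pairs, the SD within groups was 96.3% of the mean for a single copy (median, 44.4% to 175%) and 29.2% for the sum (17.6% to 51.4%). The level of a single copy of such a pair is uncertain in every comparison below.

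**Figure D3:**
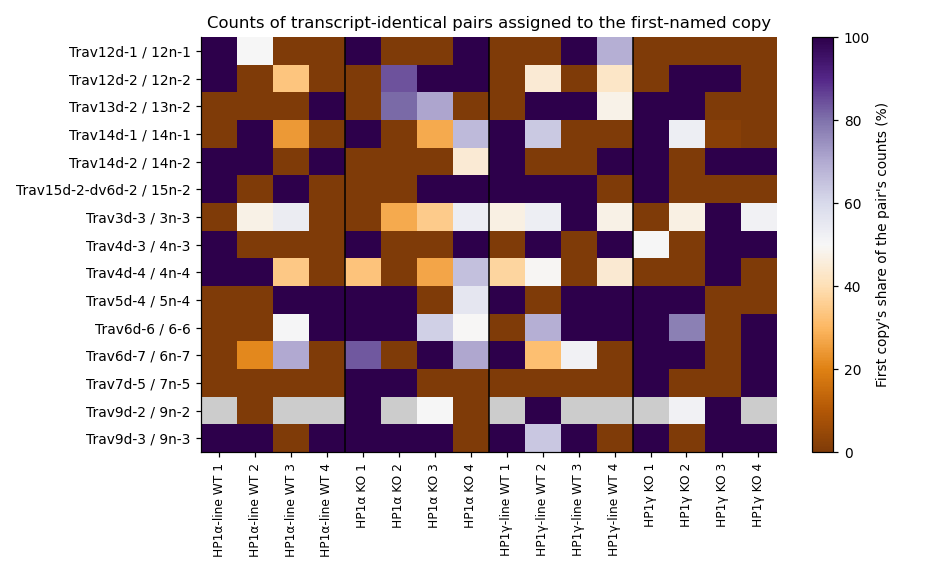
Share of a pair's counts (%) that was given to the first-named of the copies, for 15 pairs with the same transcript (rows) in the 16 samples (columns). Dark purple (100%) and dark brown (0%) cells are cases in which all counts went to 1 copy, 181 of 231, and grey cells had under 10 counts.

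The sum over all Trav rows was 267, 275, 273 and 273 CPM in HP1α KO and 250, 248, 237 and 251 CPM in WT littermates. The 4 KO samples were all above the 4 WT samples. The constant gene Trac was likewise at 825, 830, 818 and 803 CPM in HP1α KO and at 782, 742, 759 and 748 CPM in WT littermates (log2 fold change 0.11, SE 0.0433, edgeR adjusted p = 0.946). Relative to Trac, the Trav sum was 0.323 to 0.340 in KO and 0.312 to 0.336 in WT, which overlapped. In HP1γ KO the Trav sum was 231, 259, 267 and 253 CPM, and 261, 236, 225 and 263 CPM in WT littermates, with no separation. The 60 Traj rows received between 3 and 15 counts per sample in all, so that joining segments, and with them the invariant Trav11 to Traj18 chain, could not be read from these counts.

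To ask whether the loss of HP1α changed the use of single segments, the 97 Trav rows that passed the filter on low counts were tested among all genes. A row was called when its adjusted p was under 0.05 and its absolute log2 fold change above 1. No Trav row was called in HP1α KO against WT by edgeR, where 0% of the 14881 genes tested were called. An unadjusted p under 0.05 was reached by 6 of the 97 rows (6.19%), against 4.27% of all genes, and DESeq2 called 0, against 0.00741% of the genes it fitted. The median log2 fold change of the tested rows was 0.16, against 0.00258 over all genes. The 3 rows with the smallest p were Trav9-2, Trav6-5 and Trav13-4-dv7.

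Trav9-2 held 1.98%, 1.93%, 1.91% and 2.17% in HP1α KO and 1.71%, 1.36%, 1.54% and 1.41% in WT littermates, so that the groups did not overlap. The difference was 0.491 percentage points (exact two-sided permutation test, p = 0.0286, the smallest that 4 against 4 samples allow), and the log2 fold change of the CPM was 0.55 (SE 0.131, edgeR adjusted p = 0.946). It was the single row of the 97 (1.03%) whose groups did not overlap in CPM, against 2.96% of all genes. In the HP1γ line the row was at 1.88%, 1.81%, 2.56% and 1.83% in KO and at 1.36%, 3.91%, 1.27% and 1.44% in WT, which overlapped through the WT sample at 3.91%. Trav6-5 held 1.69% to 2.69% in HP1α KO and 1.56% to 2.05% in WT (log2 fold change 0.45, SE 0.167, edgeR adjusted p = 0.946), and Trav13-4-dv7 0.627% to 1.16% and 0.339% to 0.711% (log2 fold change 0.76, edgeR adjusted p = 0.946).

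In HP1γ KO against WT, 0 of the 93 rows tested were called by edgeR, against 0.234% of all genes. DESeq2 called 1, Trav14-1, against 0.355% of the genes it fitted. An unadjusted p under 0.05 was reached by 13 rows (14%), against 11.9% of all genes, and 1 row, Trav4-3, had groups that did not overlap in CPM (1.08%, against 7.11% of all genes). Trav4-3 held 1.35%, 1.42%, 1.19% and 1.37% in HP1γ KO and 1.17%, 0.831%, 1.10% and 1.16% in WT littermates (log2 fold change 0.36, SE 0.190, edgeR adjusted p = 0.488).

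Trav5-4 was the third row by p, with a log2 fold change of 0.97 (SE 0.331, edgeR adjusted p = 0.340). It held 3.03%, 0.831%, 1.62% and 1.23% in HP1γ KO and 0.944%, 0.876%, 0.734% and 0.902% in WT littermates. KO sample 2 lay within the WT range and KO sample 1 stood highest, and the fold change was 0.59 when the latter was left out. Trav5-4 forms a near-identical set with Trav5d-4 and Trav5n-4 (2.27% summed, mean of 16 samples). The values of the single row therefore depend on how reads were divided, and with the copies summed KO and WT overlapped in CPM.

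Trav14-1 held 1.87%, 4.16%, 3.01% and 1.63% in HP1γ KO and 1.69%, 1.12%, 1.13% and 1.21% in WT littermates. KO samples 1, 2 and 3 were above every sample of the other three groups, and KO sample 4 lay within the range of the WT littermates. The log2 fold change was 1.10 (SE 0.322, edgeR adjusted p = 0.253, DESeq2 adjusted p = 0.0349), and it was 0.79 without the KO sample at 4.16%. In the HP1α line, Trav14-1 stayed between 1.11% and 1.66% in all 8 samples, and the HP1α effect minus the HP1γ effect was -1.05 on the log2 scale (SE 0.382, edgeR adjusted p = 0.44).

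Trav11 held 4.57%, 5.86%, 3.98% and 5.71% in HP1γ KO and 5.85%, 9.12%, 6.62% and 7.57% in WT littermates. The groups overlapped only in the highest KO sample (5.86%) and the lowest WT sample (5.85%). Markers of other cells also differed between these groups: the summed level of 8 B cell markers was 61.6 to 66.3 CPM in KO and 44.4 to 54.0 CPM in WT, and that of 6 myeloid markers 86.2 to 114.7 CPM and 74.2 to 100.4 CPM, and their part in the result was not tested. The Trav11 difference was -2.26 percentage points (exact two-sided permutation test, p = 0.0571), and the log2 fold change was -0.48 (SE 0.164, edgeR adjusted p = 0.336). In HP1α KO, Trav11 was at 5.86%, 5.98%, 4.58% and 6.26%, and at 5.5%, 6.73%, 5.2% and 6.64% in WT littermates, a difference of -0.352 points (exact permutation test, p = 0.543). The effects of the knockouts differed by 0.54 on the log2 scale (SE 0.221, edgeR adjusted p = 0.459). Trav1, the segment of MAIT cells, held 0.438% (SD 0.163, n = 16), with differences of 0.0368 points in the HP1α line and 0.0412 points in the HP1γ line (p = 0.80 and p = 0.857, exact permutation tests).

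Genes of NKT cells were set beside Trav11, from a list of 8 markers. Zbtb16, which encodes the transcription factor PLZF of innate-like T cells, was at 43.3, 56.3, 48.9 and 53.8 CPM in HP1γ KO and at 63.1, 99.7, 60.3 and 75.7 CPM in WT littermates. The 4 KO samples were all lower, with a log2 fold change of -0.55 (SE 0.152, edgeR adjusted p = 0.227). Klrk1, which encodes the receptor NKG2D, was the list member past the adjusted p in this comparison (log2 fold change -0.58, SE 0.0965, edgeR adjusted p = 0.0385), with 22.1 to 25.0 CPM in KO and 32.0 to 41.2 CPM in WT. Cxcr6 was at -0.50 and Slamf6 at -0.16 on the log2 scale, and Klrb1c, Il2rb and Tbx21 lay between -0.037 and -0.01, with edgeR adjusted p of 0.362 or more for these 5 genes. Across the 16 samples the Trav11 share and Zbtb16 CPM correlated with Pearson's r = 0.853 (permutation test, p = 0.00022, adjusted 0.00154 over the 7 genes compared) and Spearman's rho = 0.668 (p = 0.00544, adjusted 0.0381). Without the 2 samples farthest from the median Trav11 share, r was 0.792 (n = 14). Within the 8 samples of a line it was 0.871 in HP1α (exact permutation test, unadjusted p = 0.00833) and 0.949 in HP1γ (exact permutation test, unadjusted p = 0.00109). All of these correlations pool KO and WT samples, so that they also hold the differences between groups. Correlations within a single group are not given. Cxcr6, a chemokine receptor of NKT and effector T cells, was second by Pearson's r, with r = 0.771 (permutation test, adjusted p = 0.00805) and a rho of 0.476 (adjusted p = 0.113), and Klrb1c, which encodes NK1.1, had r = 0.495 (adjusted p = 0.108) and a rho of 0.594 (adjusted p = 0.0619). For Il2rb, Slamf6, Tbx21 and Klrk1, r lay between -0.151 and 0.359, with adjusted p of 0.297 or more, and rho between -0.156 and 0.547, with adjusted p of 0.0723 or more. For the genes other than Zbtb16, r within the HP1α line (8 samples) ran from -0.734 (Tbx21) to 0.810 (Klrk1). In the HP1γ line it ran from 0.148 (Il2rb) to 0.820 (Cxcr6), and only Tbx21 in the HP1α line was negative. Traj18 had at most 3 counts in a sample and was not used. The summed level of the 8 markers was 1672 to 1917 CPM in HP1γ KO and 1672 to 2126 CPM in WT littermates. Most of this sum was Il2rb, at 1239 to 1448 CPM in KO and 1148 to 1526 CPM in WT, so that it says little about the other markers. The summed level of 4 NK cell markers was 22.6 to 40.3 CPM in KO and 39.3 to 50.0 CPM in WT. Nearly all of this sum was Eomes and Klrc1, so that it says little about the other members. Ncr1 was at 0.0653 to 0.379 CPM in KO and 0.0648 to 0.153 CPM in WT. Klra8 did not exceed 0.303 CPM in KO and 0.127 CPM in WT. The part of NKT cell number in the Trav11 share was not tested.

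**Figure D4:**
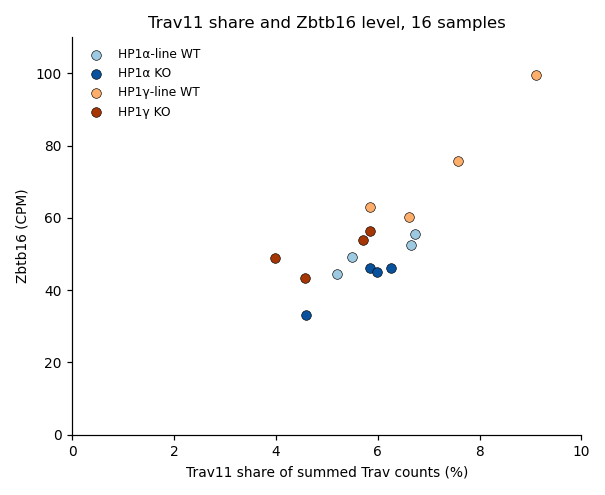
Zbtb16 level (CPM) against the Trav11 share of summed Trav counts (%), 1 point per sample, coloured by group. The WT sample of the HP1γ line with the highest Trav11 share, 9.12%, also has the highest Zbtb16 level, 99.7 CPM, and the 4 HP1γ KO samples lie at 56.3 CPM or lower.

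To compare the lines, KO and WT of each were combined. In the fit of all 16 samples, 1 of 104 Trav rows was called between the HP1α and the HP1γ line by edgeR (0.962%), against 4.06% of all genes. By adjusted p alone, 6 rows (5.77%) passed, against 41.8% of all genes, and 9 rows (8.65%) had an unadjusted p under 0.05, against 49.4%. None of the 104 rows (0%) had lines that did not overlap in CPM, against 8.84%. Between the WT groups alone, 1 of 92 rows was called, against 1.9% of all genes. In that comparison 3 rows passed the adjusted p alone (Trav13n-1, Trav5-4 and Trav16), against 12.8%, and 10 rows (10.9%) the unadjusted p, against 29.9%. The line is set by breeding, and line, founder genotype and litter cannot be told apart.

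Trav6-2, which lies among the 8 rows without a letter at the far end of the locus, was the row called between the lines. It held 0.310%, 0.381%, 0.194% and 0.359% in HP1α KO, 0.709%, 0.264%, 0.217% and 0.289% in the WT littermates, 0.197%, 0.118%, 0.147% and 0.0710% in HP1γ KO and 0.199%, 0.130%, 0.377% and 0.223% in the WT littermates. The lines overlapped, and a single WT sample of the HP1α line stood highest. In that sample the counts were not whole (56.7 for Trav6-2 beside 27.3 for Trav6-1), so that its value depends in part on how reads were divided. The same held for WT sample 4 of the HP1γ line (19.3 beside 36.7). The log2 fold change was 1.03 (SE 0.304, edgeR adjusted p = 0.0122). It was 0.77 without that WT sample, and 0.98 without HP1α KO sample 2, 0.92 without HP1γ KO sample 4 and 0.93 without WT sample 2 of the HP1γ line, each below the threshold for a call.

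The other five rows past the adjusted p were Trav14-2 (log2 fold change 0.75, edgeR adjusted p = 0.00471), Trav8d-1 (0.61, edgeR adjusted p = 0.0458), Trav13-1 (0.39, edgeR adjusted p = 0.0370) and Trav3-3 (0.33, edgeR adjusted p = 0.0270), all higher in the HP1α line, and Trav16 (-0.71, edgeR adjusted p = 0.00586), which was lower. Trav14-2 held 1.58% to 4.14% in the 8 samples of the HP1α line and 1.02% to 2.06% in those of the HP1γ line. The difference in share was 0.963 points (exact permutation test, p = 0.00591).

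The Trav16 family was followed further after its values were seen. The 3 copies together held 2.63%, 3.40%, 2.58% and 3.32% in HP1α KO and 3.18%, 2.89%, 3.28% and 3.81% in WT littermates. They held 3.87%, 4.06%, 5.27% and 5.49% in HP1γ KO and 3.93%, 4.66%, 5.26% and 4.80% in WT littermates. All 8 samples of the HP1α line were below all 8 of the HP1γ line in this share of counts, whereas KO and WT overlapped within both lines. The gap was narrow, from 3.81% to 3.87%. As shares of summed Trav TPM the lines overlapped, with up to 3.82% in the HP1α line and from 3.67% in the HP1γ line. The labels do not give which version of the locus (129/Sv or C57BL/6) each line carries, and the part of this, or of mapping to the C57BL/6 reference, in the differences between lines was not tested. With the copies summed before the fit, the log2 fold change between lines was -0.52 (SE 0.106, edgeR adjusted p = 0.00106), and between the WT groups alone it was -0.50 (SE 0.122, edgeR adjusted p = 0.0269). Among the 73 summed members tested, 1 was called between lines (Trav6-2), against 4.08% of all features, and 0 between the WT groups by edgeR, against 1.91%, where 9 had an unadjusted p under 0.05, against 30.1% of all features. In CPM the lines overlapped for the Trav16 sum. The single copies each had the same order of the line means: 1.04% and 1.79% for Trav16, 1.78% and 2.18% for Trav16n, and 0.309% and 0.697% for Trav16d-dv11, in the HP1α and the HP1γ line.

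**Figure D5:**
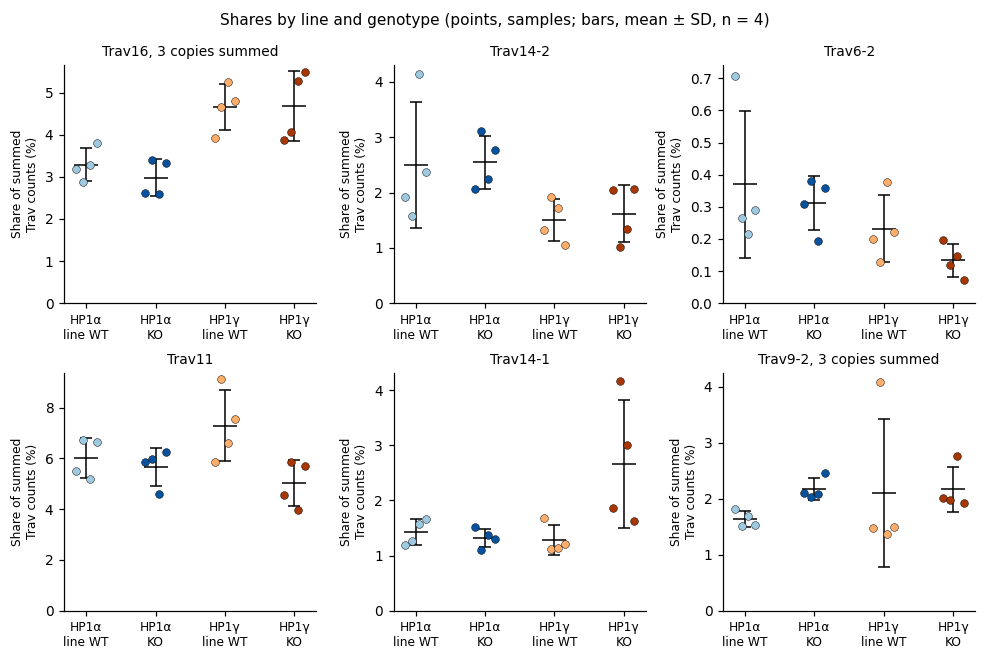
Share of summed Trav counts (%) of 6 members by group, with 1 point per sample and the mean ± SD of 4 samples. In this share the Trav16 sum, picked after its values were seen, separates the lines, with 2.58% to 3.81% against 3.87% to 5.49%. In CPM and as a share of summed Trav TPM the lines overlapped for it. Trav14-1 and Trav9-2 show the spread of single samples.

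Between the WT groups, Trav13n-1 was called (log2 fold change 1.36, SE 0.280, edgeR adjusted p = 0.0148). It held 1.04%, 0.618%, 0.601% and 0.587% in WT of the HP1α line and 0.328%, 0.303%, 0.281% and 0.205% in WT of the HP1γ line, with no overlap. Without the WT sample of the HP1α line at 1.04%, its log2 fold change was 1.11 (edgeR adjusted p = 0.0526). Trav13n-1 differs from Trav13d-1 by 1 base over 331, and the sum of both was 0.966% to 1.66% and 0.501% to 0.802%, with a log2 fold change of 0.88 (SE 0.256, edgeR adjusted p = 0.0458), below the fold of a call. Trav3-3 (1.89% to 2.62% against 1.49% to 1.80%) and Trav5-4 (1.17% to 2.04% against 0.734% to 0.944%) did not overlap between these groups either. In all, 4 of the 92 rows (4.35%) had WT groups that did not overlap in CPM, against 19.5% of all genes. With near-identical copies summed this held for 6.85% of members, against 19.6% of all features, and the Trav5-4 set was 1 of these.

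In the test of whether the knockouts acted differently, 0 of 104 rows were called by edgeR, against 0.0317% of all genes, none passed the adjusted p alone (0.0507% of all genes did), DESeq2 called 1 (Trav7n-6, against 0.127% of the genes it fitted), and an unadjusted p under 0.05 was reached by 11 rows (10.6%), against 9.58%. The row with the smallest p was Trav7n-6, with a fitted log2 difference of 10.6. It was at 0 in all 4 HP1γ KO samples and in 3 HP1α-line WT samples, so that the fitted size is no measure. Its transcript shares 380 bases without a difference with that of Trav7d-6, and the sum of both was 0.751% to 1.20% in HP1α KO, 0.631% to 1.32% in WT littermates, 0.329% to 0.946% in HP1γ KO and 0.708% to 1.19% in WT littermates, overlapping in both lines. The third row by p was Trav7d-3 (log2 difference 1.74, edgeR adjusted p = 0.451).

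The evenness of segment use was described by the effective number of members, which is the exponential of Shannon's entropy of the shares. Over the 130 rows it was 67.0 ± 2.85 in HP1α KO, 63.9 ± 3.19 in WT littermates, 62.2 ± 1.69 in HP1γ KO and 62.6 ± 2.30 in WT littermates (SD, n = 4). With near-identical copies summed it was 52.6 ± 0.498, 51.8 ± 1.27, 49.6 ± 1.49 and 48.4 ± 1.01 in the same order. The 8 samples of the HP1α line (50.0 to 53.3) lay mostly above those of the HP1γ line (47.2 to 51.6), and the ranges overlapped. No test was made of this number.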

How the data were processed

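RNA was sequenced in 16 samples of sorted splenic memory CD4+ T cells, 4 in each group. The authors aligned paired reads with STAR to GRCm39 and deposited estimated counts per gene from Salmon and TPM values, made with the nf-core pipeline. Salmon divides reads that match several copies between them, which bears on duplicated Trav rows. Here, shares are of unrounded counts, and counts were rounded for tests.

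Each comparison was fitted on all genes with edgeR 4.0.16 (TMM, quasi-likelihood test, filterByExpr with a minimum count of 10) in R 4.3.3, with Benjamini-Hochberg adjustment. A gene was called where its adjusted p was below 0.05 and its log2 fold change beyond 1 in either direction. A step that simulated HP1α KO against WT on 14946 genes recovered 100% of 200 genes changed 4-fold, and 1.48% of its calls were wrong. It gave all genes the same dispersion and changed only genes above a set level of counts. It therefore does not show how often smaller changes, or changes in Trav rows with a wider spread, would be called. Shares of named rows were compared by two-sided exact permutation tests of the mean (92 tests, unadjusted), using scipy 1.17.1. Correlations over the 16 samples were tested by 100000 permutations with Benjamini-Hochberg adjustment. Those within a line were tested by exact permutation without adjustment, and samples were permuted across KO and WT. DESeq2 1.42.0 and limma 3.58.1 on log2(TPM + 1) or log2(TPM + 0.1) were among the alternatives. Nothing in the labels says which samples were prepared together, so that p-values measure the spread between these samples.

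Segment positions and sequences were read from a GENCODE M39 annotation and the GRCm39 genome, matched by gene identifier. The authors used an Ensembl annotation of the same build. Near-identical copies were found by aligning spliced transcripts, and fits with their counts summed were added after the data were seen. The named rows were the 15 with the largest mean share, the called rows of each comparison (up to 10) or, where none was called, the 3 with the smallest p, and Trav11, Trav11d and Trav1. Other rows, such as Trav4-3, Trav7d-6 and those past the adjusted p alone, were named after their values were seen. The members and lists were chosen with earlier results of these data known.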

Additional observations from a re-analysis of the deposited data

Results flagged for a closer look

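In 23 members after summing of near-identical copies, the highest or lowest of the 4 samples of each group was compared with the other three by Dixon's ratio, at the 95% critical value. Of the 92 groups checked, 7 held a sample that stood apart, where chance gives about 5%. The count is therefore not far from chance, and no test was made of it. All 7 were high values, and 6 were in the HP1γ line, which was not tested either. Some of the members checked had been named for their small p in these same data.

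Trav13-4-dv7 held 3.93% of summed Trav counts in HP1γ KO sample 3, against 0.361% to 0.716% in the other three. Trav14n-3 held 3.68% in WT sample 4 of the HP1γ line, against 1.13% to 1.29%. The sum of the 3 Trav9-2 copies was 4.08% in WT sample 2 of the HP1γ line, against 1.36% to 1.5%, and 2.76% in HP1γ KO sample 3, against 1.92% to 2.01%. Trav12-2 held 2.24% in HP1γ KO sample 1, against 1.48% to 1.58%, and Trav14-1 held 1.69% in WT sample 1 of the HP1γ line, against 1.12% to 1.21%. Trav6-2 held 0.709% in WT sample 1 of the HP1α line, against 0.217% to 0.289%, and its call between the lines was lost without this sample. What set these samples apart was not tested.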

How the results depend on the processing

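Of the counts of called Trav rows, that of HP1α KO against WT was 0 to 1 when single samples were left out. Its single call, without WT sample 3 of the HP1α line, was Trav14n-2, a copy with the same transcript as Trav14d-2. Between the WT groups the count of 1 became 3 by adjusted p alone, 0 with all 16 samples in one fit, 0 with near-identical copies summed, and 0 to 1 with single samples left out (0 without WT sample 1 of the HP1α line). Between the lines the count of 1 became 6 by adjusted p alone, 0 with limma on either TPM scale, 0 to 3 with single samples left out, and 0 to 2 when copies were also summed. DESeq2 called 1 row in HP1γ KO against WT (Trav14-1) and 1 in the interaction (Trav7n-6). The other 135 values of this kind moved by less than 1.5 times the count or less than their spread. Among these, the HP1γ KO minus WT difference in the effective number of rows (-0.331) was near 0 and ranged from -1.13 to 0.644 with single samples left out. Of the values of single named rows, 491 kept their direction and side of the threshold, 59 fell below it, 1 rose past it and 14 changed sign.

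All 14 changes of sign were of Trav11, whose sign was not stable where its difference was near 0. Its log2 fold change in HP1α KO was 0.05 and ranged from -0.028 to 0.14 with single samples left out. Between lines it was 0.0052, but -0.00025 with DESeq2, -0.0016 with RLE size factors, and -0.031 to 0.062 with single samples left out. Its share difference ranged from -0.624 to 0.00949 points in HP1α KO and from -0.626 to 0.108 points between lines.

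Replicate numbers are shared between KO and WT, but same-numbered samples did not all deviate together (6 of 8 HP1α-line and 2 of 8 HP1γ-line samples were most like their own number). With a replicate block the counts of calls were 0 in HP1α KO, 0 in HP1γ KO, 1 between lines, 1 between WT groups and 0 in the interaction, and the adjusted p of Trav11 in HP1γ KO was 0.046. Depth limits rows with few counts, since 3 counts are 0.0282% to 0.0492% of summed Trav counts. The causes of these changes were not tested.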
